A study of Saccharomyces cerevisiae with 8 samples.

Results

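The 8 genes described here encode factors that end transcription by RNA polymerase II in the yeast nucleus or degrade the RNA that is left: NRD1, NAB3, SEN1, RAT1, RAI1, RRP6, SSU72 and PCF11. They were chosen by name, and all 8 were found among the 7272 features of the deposited tables. Nascent RNA attached to the polymerase was sequenced (native elongating transcript sequencing, NET-seq), so a value is the density of engaged polymerase on a gene and not the level of its mRNA. Saccharomyces cerevisiae cultures in YPD at mid-log phase gave 8 libraries, 2 biological replicates of each group: the cac1 mutant (strain YSB3062), the cac2 mutant (strain YSB3063), the cac3 mutant (strain YSB3064) and wild type (strain YSC0001). The FLAG tag on the polymerase subunit Rpb3 was present in every strain. Cac1, Cac2 and Cac3 are the subunits of CAF-I, a chaperone that deposits histones behind the replication fork. The labels name the mutants without giving the alleles, and each group was 1 strain. An effect of the mutation and any other difference of these strains from YSC0001 cannot be told apart. No sequences were used here.

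Short noncoding transcripts in yeast are mostly ended by the Nrd1-Nab3-Sen1 complex, in which Nrd1 and Nab3 bind sites in the RNA and the helicase Sen1 releases the polymerase. The RNA is then handed to the nuclear exosome, whose nuclear-specific exonuclease is Rrp6. At the ends of protein-coding genes the cleavage machinery, which includes the polymerase-binding factor Pcf11 and the phosphatase Ssu72, cuts the RNA. The exonuclease Rat1, held by its partner Rai1, then degrades the RNA still attached to the polymerase. Several of these factors control their own genes, as is known for NRD1 and PCF11, whose transcription can end early. Cryptic unstable transcripts (CUTs) are substrates of this system and stable unannotated transcripts (SUTs) are less so, and both classes were counted in these libraries.

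The genes lay on 6 chromosomes, with coordinates as deposited; the sources used here name no genome build. NRD1 (YNL251C) was listed on the minus strand of chromosome XIV from 172455 to 174599, and SSU72 (YNL222W) on the plus strand of the same chromosome from 229059 to 229867. RAT1 (YOR048C) was on the minus strand of chromosome XV from 418406 to 421710, and RRP6 (YOR001W) on its plus strand from 326802 to 329146. NAB3 (YPL190C) was on the minus strand of chromosome XVI from 184893 to 187837, SEN1 (YLR430W) on the plus strand of chromosome XII from 993104 to 1000224, RAI1 (YGL246C) on the minus strand of chromosome VII from 37517 to 38829, and PCF11 (YDR228C) on the minus strand of chromosome IV from 921921 to 923897. Each of these spans is an ORF-T, the transcribed unit of a protein-coding gene.

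The libraries held 1959549 to 7117979 counted reads in the mutants and 1880299 and 7705151 in wild type. The 8 genes together took 0.172% to 0.181% of the reads of a library in the mutants, and 0.179% and 0.176% in wild type. The genes of the mutated subunits were still read, at 36.1% of the wild-type level for RLF2 (the gene of Cac1) in cac1, 32.6% for CAC2 in cac2 and 44.8% for MSI1 (the gene of Cac3) in cac3, and each was below its level in the libraries of every other group. Values are shares of a library, so a change common to all genes would not show. Each library came from a whole culture, so less polymerase per cell and fewer cells transcribing a gene cannot be told apart.

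Polymerase density differed widely among the 8 genes, and in every group NRD1 and SSU72 were the densest and SEN1 the least dense. NRD1 was the densest, at 237 ± 23 reads per kilobase, scaled to the library's reads (RPKM) in cac1, 257 ± 10 in cac2, 231 ± 3.5 in cac3 and 247 ± 5.7 in wild type (SD, n = 2 each). SSU72 came next, at 159.5 ± 0.085 RPKM in cac1, 157 ± 22 in cac2, 171 ± 18 in cac3 and 202 ± 5.8 in wild type. Its 2 libraries did not overlap those of NRD1 or of the gene after it in any group. NAB3, RRP6, PCF11, RAT1 and RAI1 held the middle, with group means between 67.9 and 86.0 RPKM in the mutants and between 63.8 and 92.1 RPKM in wild type. In wild type NAB3 and PCF11 overlapped, as did PCF11 and RRP6 and also RRP6 and RAI1, while RAT1 stood below RAI1 without overlap; RAT1 overlapped its neighbours in the order in the cac1 and cac2 mutants. SEN1 was the least dense, at 28.5 ± 1.1 RPKM in cac1, 27.5 ± 2.6 in cac2, 28.3 ± 1.5 in cac3 and 27.0 ± 0.70 in wild type. Among all ORF-Ts in wild type, 92.6% were below NRD1, 90.1% below SSU72, 52.5% below RAT1 and 15.2% below SEN1.

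**Figure D1:**
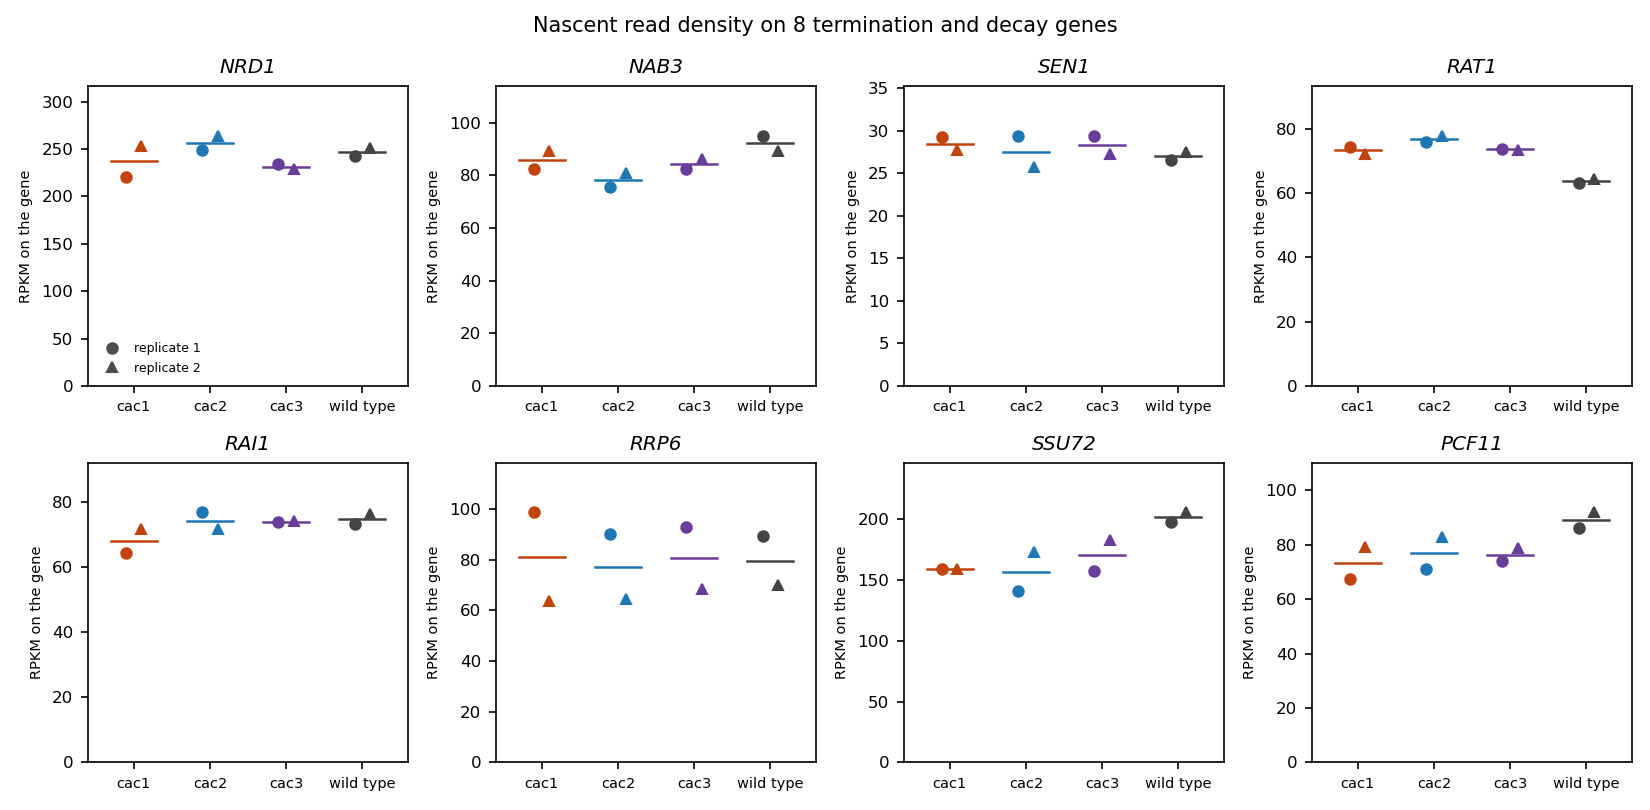
Read density on each of the 8 genes (RPKM, linear axis starting at 0) in the cac1, cac2, cac3 and wild-type libraries. Circles are replicate 1, triangles replicate 2, and the line is the mean of the 2 libraries; all 6 mutant libraries lie below wild type for SSU72 and PCF11 and above it for RAT1, and RRP6 separates by replicate number and not by group.

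Across the mean of the 3 mutants, 1 of the 8 genes rose (RAT1) and 1 fell (SSU72), in edgeR's quasi-likelihood test at an adjusted p under 0.05 (Benjamini-Hochberg, 7271 features). Of all features 20.8% were called in that comparison, 11.9% higher and 8.86% lower, so the members' share was near the background. The median log2 change of the 8 genes was -0.05, beside 0.01 over all features. The cac1 mutant had 1 member called (SSU72) against a background of 19.2%, the cac2 mutant had 2 (SSU72 and RAT1) against 15.5%, and the cac3 mutant had 0 against 6.08%. At an unadjusted p under 0.05 there were 3 members in cac3, and DESeq2 called 0. Libraries that shared a replicate number also deviated together, and with replicate number as a block 3 members were called in the mean of the 3 mutants (SSU72, RAT1 and PCF11) against a background of 30.8%. The block gave 3 in cac1 against 29.0%, 3 in cac2 against 25.2%, and 3 in cac3 against 14.4%. For SSU72, PCF11 and RAT1 all 6 mutant libraries lay on one side of both wild-type libraries, as did those of 32.1% of all features.

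SSU72, the phosphatase of the polymerase's carboxy-terminal domain, had lower polymerase density in the mutants. Its levels were 159.4 and 159.5 RPKM in cac1, 141 and 173 in cac2, 158 and 183 in cac3, against 198 and 206 in wild type. Every mutant library was below both wild-type libraries, and the spread within cac2 and within cac3 was wider than within wild type. The values rested on 258 to 964 reads per mutant library and on 294 and 1235 reads in wild type. The log2 change of the mean of the 3 mutants was -0.31 (SE 0.08, adjusted p = 0.022), a density of 0.804 times wild type. It was -0.34 in cac1 (adjusted p = 0.042), -0.35 in cac2 (adjusted p = 0.042) and -0.25 in cac3 (adjusted p = 0.18, and 0.029 with the replicate block). The calls in cac1 and cac2 were each lost without either wild-type library, without scaling factors and in DESeq2. The call in the mean of the 3 mutants was likewise lost without wild-type replicate 1 (adjusted p = 0.081) and without wild-type replicate 2 (adjusted p = 0.25).

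RAT1, the nuclear 5′-to-3′ exonuclease, was the gene that rose. It had 74.5 and 72.2 RPKM in cac1, 75.9 and 77.8 in cac2, 73.8 and 73.5 in cac3, against 63.1 and 64.4 in wild type. The libraries of a group lay close together and the mutants were all above wild type. The log2 change was 0.22 in the mean of the 3 mutants (SE 0.06, adjusted p = 0.019), or 1.17 times wild type. It was 0.20 in cac1 (adjusted p = 0.065, block 0.030), 0.27 in cac2 (adjusted p = 0.024) and 0.21 in cac3 (adjusted p = 0.10, block 0.026). This call too was lost without either wild-type library, at adjusted p = 0.092 without replicate 1 and 0.16 without replicate 2, without cac3 replicate 2 and in DESeq2. RAI1, which encodes the partner that stabilises Rat1, had a log2 change of -0.06 (SE 0.06, adjusted p = 0.50). Its levels of 64.3 to 76.7 RPKM in the mutants overlapped the 73.2 and 76.2 RPKM of wild type.

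PCF11, the cleavage factor I subunit that binds the polymerase's carboxy-terminal domain, gave the second largest difference among the 8 genes. It had 67.5 and 79.1 RPKM in cac1, 71.1 and 82.9 in cac2, 74.0 and 78.8 in cac3, against 86.0 and 91.9 in wild type. In each group replicate 1 was below replicate 2, and the 6 mutant libraries were below both wild-type ones. The log2 change of -0.24 (SE 0.08) did not pass the threshold (adjusted p = 0.059). With the replicate block it was -0.22 (SE 0.06) at an adjusted p of 0.0042, and the block also called cac1 (-0.26, adjusted p = 0.0081) and cac3 (-0.21, adjusted p = 0.035).

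None of the 3 genes of the Nrd1-Nab3-Sen1 complex passed edgeR's test in any mutant; in the mean of the 3 mutants 1 of them (NAB3) had an unadjusted p under 0.05 and DESeq2 called 0. For NAB3, the partner of Nrd1 in RNA binding, the levels were 82.6 and 89.4 RPKM in cac1, 75.7 and 80.8 in cac2, 82.4 and 86.1 in cac3, against 95.0 and 89.3 in wild type. Only cac1 replicate 2 reached the lower wild-type library, by less than 1 RPKM. The log2 change of NAB3 was -0.15 in the mean of the 3 mutants (SE 0.06, adjusted p = 0.11), and in cac2 it was -0.23 (adjusted p = 0.064, and 0.020 with the replicate block). NRD1 had 220.5 and 253 RPKM in cac1, 249 and 264 in cac2, 234 and 229 in cac3, against 243 and 251 in wild type, a log2 change of -0.03 (SE 0.06, adjusted p = 0.75). The helicase gene SEN1 ranged over 25.7 to 29.4 RPKM in the mutants, and had 26.5 and 27.5 RPKM in wild type, a log2 change of 0.05 (SE 0.07, adjusted p = 0.65). The NRD1 and SEN1 libraries of the mutants overlapped those of wild type.

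RRP6, the exonuclease of the nuclear exosome, separated by replicate number, and no difference by genotype was detected. The replicate 1 libraries held 98.6 RPKM in cac1, 90.1 in cac2, 92.9 in cac3 and 89.2 in wild type, and the replicate 2 libraries held 63.7, 64.4, 68.3 and 70.0 RPKM in the same order. The sets did not overlap, whereas each mutant's range overlapped that of wild type. The mean log2 difference of replicate 1 over replicate 2 was 0.47, and 1.08% of the 6636 features with at least 50 reads on average had one at least as large. RRP6 was the 1 member of 8 whose replicate 1 and replicate 2 libraries did not overlap, beside 3.65% of those features. Its log2 change in the mean of the 3 mutants was 0.01 (SE 0.18, adjusted p = 0.99), and with the replicate block -0.03 (SE 0.06). What distinguishes the 2 replicate numbers is not given in the labels.

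No member passed the test between 2 mutants on the gene itself. Of the 24 tests of 8 genes in 3 pairs, edgeR called 0, 0 had an unadjusted p under 0.05, and DESeq2 called 0. The background was low as well, at 0.055% of features for cac1 against cac2, 1.36% for cac1 against cac3 and 0.605% for cac2 against cac3. SSU72 had a log2 difference of -0.10 (SE 0.10) for cac1 against cac3 and of -0.11 (SE 0.10) for cac2 against cac3. RAT1 had -0.01 (SE 0.07) and 0.06 (SE 0.07) in the same pairs.

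**Figure D2:**
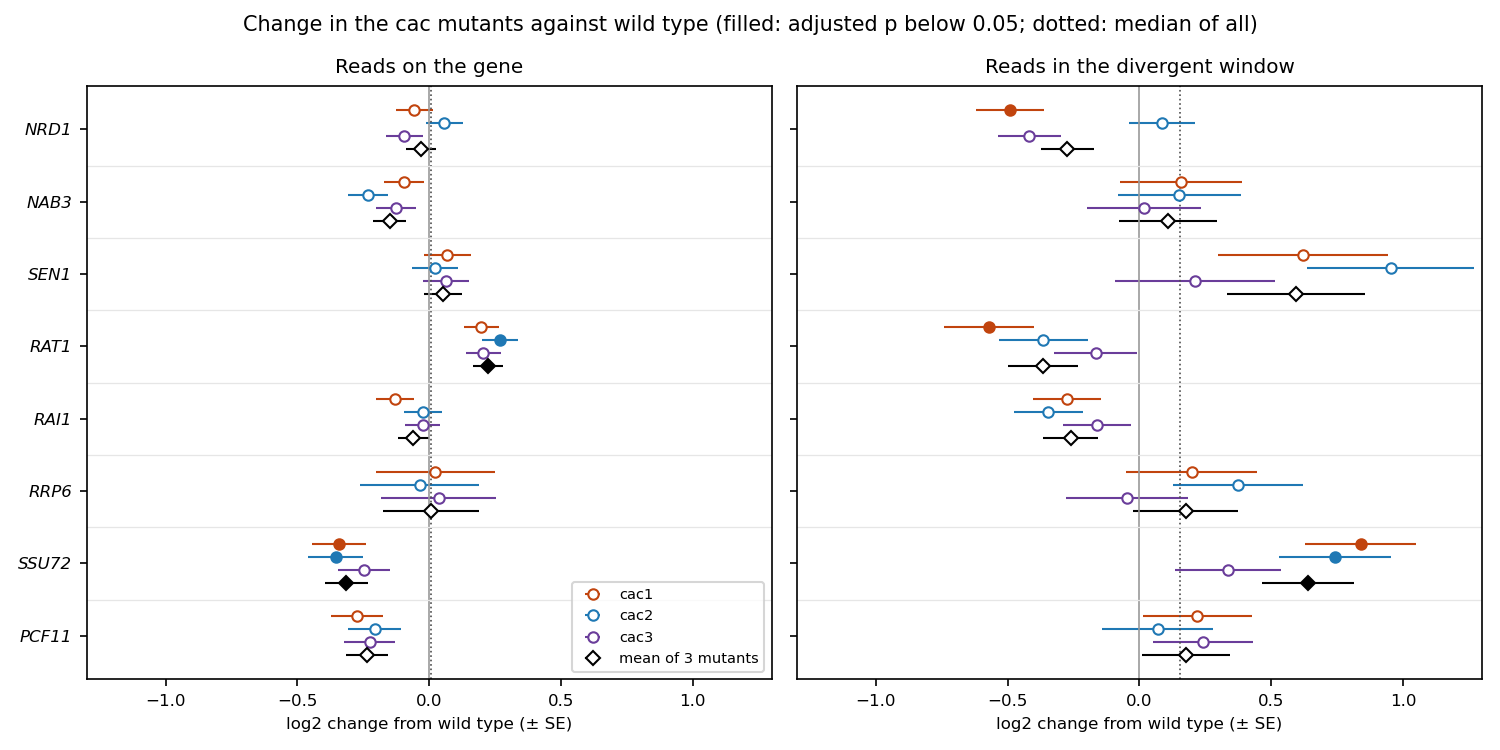
Log2 change from wild type (± SE) of each gene in cac1, cac2, cac3 and the mean of the 3 mutants, on the gene (left) and in its divergent window (right). Filled symbols have an edgeR adjusted p below 0.05 and the dotted line is the median of all features or windows; SSU72 moves down on the gene (-0.31) and up in its window (0.64), and RAT1 up on the gene (0.22) with -0.37 in its window.

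The authors also counted, for each ORF-T, the reads in a window beside its 5′ end. The window widths of all 8 genes fitted a reach of 500 bp upstream and 100 bp downstream, shortened at the nearest upstream feature of the same table. The sources used here do not state its strand, which was inferred to be the opposite one, so these reads are taken as divergent transcription. At RAT1, CUT374 lies in the window on the opposite strand. Its reads came to 91.0% to 98.4% of that window's reads in 7 libraries and 100% in the other. At NAB3, CUT887 lies wholly inside the window on the gene's own strand. It held 29 and 119 reads in wild type and 108 and 95 in cac3, where the window held 23 and 92, and 82 and 89. In cac2 it held 32 and 55 against 26 and 59, and in cac1 21 and 59 against 24 and 72. A window counted alike on the gene's strand or on both strands would hold at least the reads of CUT887. Windows without a read numbered 1 to 13 in the mutant libraries, and 126 and 19 in wild-type replicates 1 and 2, but every window of the 8 genes held at least 10 reads in every library. Window levels in the mutants were shifted upward over all windows, with a median log2 change of 0.15, and the shift was 0.02 when the libraries were scaled on the windows themselves.

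SSU72 was the member whose window rose, opposite to its gene, both in the mean of the 3 mutants and in cac1 or cac2 alone. The SSU72 window had 70.3 and 68.3 RPKM in cac1, 52.4 and 74.2 in cac2, 44.7 and 53.0 in cac3, against 45.2 and 35.6 in wild type. The cac1 and cac2 libraries were all above wild type, and cac3 replicate 1 lay between the 2 wild-type libraries. The log2 change was 0.64 in the mean of the 3 mutants (SE 0.17, adjusted p = 0.020), 0.84 in cac1 (adjusted p = 0.015), 0.74 in cac2 (adjusted p = 0.027) and 0.34 in cac3 (adjusted p = 0.33). Scaled on the windows themselves, the mean of the 3 mutants was 0.50 (adjusted p = 0.045) and cac2 was 0.52 (adjusted p = 0.088). Without wild-type replicate 2, which had the lower value, the adjusted p of the mean was 0.44 and the cac1 and cac2 calls were lost as well; DESeq2 called none of the 3.

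In the mean of the 3 mutants that was 1 window of 8, against 22.5% of all windows called, 18.1% higher and 4.39% lower. The median of the 8 windows was 0.14, beside 0.15 for all windows. In cac1, 3 member windows were called (SSU72 higher, NRD1 and RAT1 lower) against a background of 19.5%. In cac2 there was 1 (SSU72) against 18.3%, and in cac3 there were 0 against 6.04%, with 1 at an unadjusted p under 0.05 and 0 in DESeq2. With the replicate block the counts were 4 against 32.7% in the mean of the 3 mutants, 4 against 30.3% in cac1, 4 against 27.5% in cac2 and 1 against 14.7% in cac3.

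The NRD1 window was called lower in cac1. Its values in cac3 were also below wild type without passing the main test, and no difference between mutants passed it. It had 49.9 and 49.4 RPKM in cac1, 78.8 and 70.1 in cac2, 54.0 and 50.2 in cac3, against 65.2 and 72.2 in wild type. The cac1 and cac3 libraries all lay below wild type while those of cac2 overlapped it. The log2 change was -0.49 in cac1 (SE 0.13, adjusted p = 0.019), -0.42 in cac3 (adjusted p = 0.053, block 0.0079) and 0.09 in cac2 (adjusted p = 0.79), where it became -0.13 when scaled on the windows themselves. In the mean of the 3 mutants it was -0.27 (SE 0.10, adjusted p = 0.064, block 0.022, and 0.011 when scaled on the windows). The difference of cac1 from cac2 was -0.58 (SE 0.13, adjusted p = 0.57) and that of cac2 from cac3 was 0.50 (SE 0.12, adjusted p = 0.31, block 0.029). In each pair of mutants only 1 window of 5494 was called, a background of 0.0182%, and no member was. Among the 24 tests of member windows between mutants, 5 had an unadjusted p under 0.05, DESeq2 called 0 and the block called 1.

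The RAT1 window was lower in cac1, where the higher value on the gene (log2 change 0.20) did not pass edgeR's test (adjusted p = 0.065). It had 55.7 and 78.2 RPKM in cac1, 93.3 and 68.7 in cac2, 87.4 and 95.8 in cac3, against 90.5 and 111 in wild type. Both cac1 libraries were below wild type, while 1 library each of cac2 and cac3 lay between the 2 wild-type ones. The log2 change was -0.57 in cac1 (SE 0.17, adjusted p = 0.033) and -0.37 in the mean of the 3 mutants (SE 0.13, adjusted p = 0.062, block 0.0034, and 0.016 when scaled on the windows themselves). In cac2 it was -0.36 (adjusted p = 0.15, block 0.022). The cac1 calls of the NRD1 and RAT1 windows were both lost without wild-type replicate 2, without cac1 replicate 1 and in DESeq2, and that of RAT1 also without scaling factors.

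RAI1 had the densest window of the 8 genes, at 501 to 572 RPKM in the mutants against 585 and 688 RPKM in wild type. All mutant libraries were below wild type, but the share of all windows that separate in this way was not computed. RAI1 shares its promoter region with GUS1, the gene of a glutamyl-tRNA synthetase, whose 5′ end is 172 bp away on the opposite strand. The log2 change of the RAI1 window was -0.26 (SE 0.10, adjusted p = 0.087, block 0.013, and 0.016 when scaled on the windows). With the block the RAI1 window was also called in 2 single mutants, cac1 (-0.29, adjusted p = 0.039) and cac2 (-0.36, adjusted p = 0.011).

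The SEN1 window had 10 to 44 reads in a mutant library, and 10 and 36 reads in the wild-type ones. Its densities were 21.2 and 38.9 RPKM in cac1, 49.6 and 34.9 in cac2, 26.1 and 22.8 in cac3, against 23.0 and 20.5 in wild type. The cac2 libraries stood above wild type and those of cac1 and cac3 overlapped it. The log2 change in cac2 was 0.95 (SE 0.32, adjusted p = 0.051, block 0.020, and 0.12 when scaled on the windows). The NAB3, RRP6 and PCF11 windows overlapped wild type and passed no test, with log2 changes in the mean of the 3 mutants of 0.11 (SE 0.19), 0.18 (SE 0.20) and 0.18 (SE 0.17); NAB3 turned to -0.03 when scaled on the windows.

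The ratio of reads on the gene to reads in its window, which needs no scaling between libraries, called the same pair of genes. It is built from the same gene and window counts, so it is not a separate check. SSU72 had 5.27 and 5.42 reads per window read in cac1, 6.26 and 5.41 in cac2, 8.19 and 8.03 in cac3, against 10.1 and 13.4 in wild type. The 3 mutants were below wild type and the cac1 and cac2 ratios were below those of cac3. In limma the log2 change of the SSU72 ratio was -0.87 in the mean of the 3 mutants (SE 0.17, adjusted p = 0.0048), -1.11 in cac1 (adjusted p = 0.0057), -0.99 in cac2 (adjusted p = 0.0089) and -0.51 in cac3 (adjusted p = 0.22). The difference of cac1 from cac3 was -0.61 (SE 0.20, adjusted p = 0.63).

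RAT1 went the other way, with 7.36 and 5.08 reads per window read in cac1, 4.48 and 6.23 in cac2, 4.65 and 4.23 in cac3, against 3.84 and 3.21 in wild type. Every mutant library was above both wild-type ones. For this and for SSU72, the share of all ratios that separate in this way was not computed. The log2 change of the RAT1 ratio in limma was 0.57 in the mean of the 3 mutants (SE 0.17, adjusted p = 0.035). It was 0.80 in cac1 (adjusted p = 0.026) and 0.59 in cac2 (adjusted p = 0.075, block 0.021). The cac1 call of RAT1 was lost without cac1 replicate 1 or wild-type replicate 2, and the cac2 call of SSU72 without cac2 replicate 2 or wild-type replicate 2. The SSU72 call in the mean of the 3 mutants was lost without wild-type replicate 2 (adjusted p = 0.067), and the RAT1 call was lost when either wild-type library, either cac3 library, cac1 replicate 1 or cac2 replicate 2 was left out.

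For the ratio 2 members were called in the mean of the 3 mutants against 18.3% of all ratios, 4.11% higher and 14.2% lower. There were 2 in cac1 against 14.9%, 1 in cac2 against 15.4% and 0 in cac3 against 2.04%, where limma gave 1 member an unadjusted p under 0.05 and the block called 0. The median of the 8 ratios was -0.24, beside -0.12 over all. The ratio of PCF11 was 8.34 to 12 in the mutants and 13.6 and 13.2 in wild type, a log2 change of -0.42 (SE 0.17, adjusted p = 0.12). That of NAB3 was 15.2 to 21.1 in the mutants and 22.4 and 21.2 in wild type, a log2 change of -0.22 (SE 0.18, limma adjusted p = 0.43).

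The 8 genes had 21 overlapping or nearest annotated features, of which 5 were lower in the mean of the 3 mutants and 0 higher, beside 8.86% lower and 11.9% higher over all features. The 1 with a positive change at an unadjusted p under 0.05 was ATG4, DESeq2 called 0 in either direction, the block called 7 lower, and without scaling factors 1 was lower (SUT365). Among the 21, 3 were CUTs or SUTs that lay in a member's window on the opposite strand, at NRD1, RAT1 and RRP6. CUT374, in the RAT1 window, had 106 and 155 RPKM in cac1, 181 and 134 in cac2, 169.9 and 182 in cac3, against 189 and 227 in wild type, a log2 change of -0.46 (SE 0.14, adjusted p = 0.039). SUT365, which overlaps the 3′ end of RAT1 on the opposite strand, had 47.5 and 58.9 RPKM in cac1, 87.2 and 94.0 in cac2, 89.9 and 89.8 in cac3, against 92.9 and 111 in wild type. Its values were lowest in cac1, where the log2 change was -0.94 (SE 0.15, adjusted p = 0.0024), against -0.46 in the mean of the 3 mutants (adjusted p = 0.017).

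CUT320, with 208 bp in the NRD1 window, had 109 and 109 RPKM in cac1, 174 and 158 in cac2, 119 and 115 in cac3, against 148 and 158 in wild type. It followed the window, with a log2 change of -0.50 in cac1 (adjusted p = 0.011), 0.09 in cac2 (adjusted p = 0.67) and -0.40 in cac3 (adjusted p = 0.043); these reads are in part the same reads. SUT769, in the RRP6 window, had a log2 change of -0.31 (SE 0.19, adjusted p = 0.29) in the mean of the 3 mutants. The SSU72 window held no annotated CUT or SUT on the opposite strand. ATG4, the autophagy protease gene upstream of SSU72 on the same strand, had a log2 change of 0.42 in cac1 (SE 0.11, adjusted p = 0.024) and 0.21 in the mean of the 3 mutants (SE 0.09, adjusted p = 0.13).

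The other 2 neighbours that were lower lie downstream of a member on its strand: STD1 after RAT1, at -0.22 (SE 0.07, adjusted p = 0.049), and ALG6 after RRP6, at -0.22 (SE 0.06, adjusted p = 0.034). GUS1, opposite RAI1, had -0.13 (adjusted p = 0.075, block 0.024) and BRR6, which overlaps RAI1 on the other strand, had -0.25 (adjusted p = 0.10, block 0.043). Without cac3 replicate 1, and likewise without cac3 replicate 2, 1 of the 5 calls held (SUT365). Without wild-type replicate 2 none of the 5 calls held, with adjusted p from 0.25 for STD1 to 0.53 for CUT374, and without wild-type replicate 1 SUT365 (0.024) and ALG6 (0.041) held while CUT374 (0.064), CUT320 (0.096) and STD1 (0.18) did not. The sources used here do not state whether reads were assigned by strand. The CUT887 counts at NAB3 would not arise in a window counted without regard to strand. Overlapping features elsewhere on opposite strands were not checked in this way and stay uncertain.

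**Figure D3:**
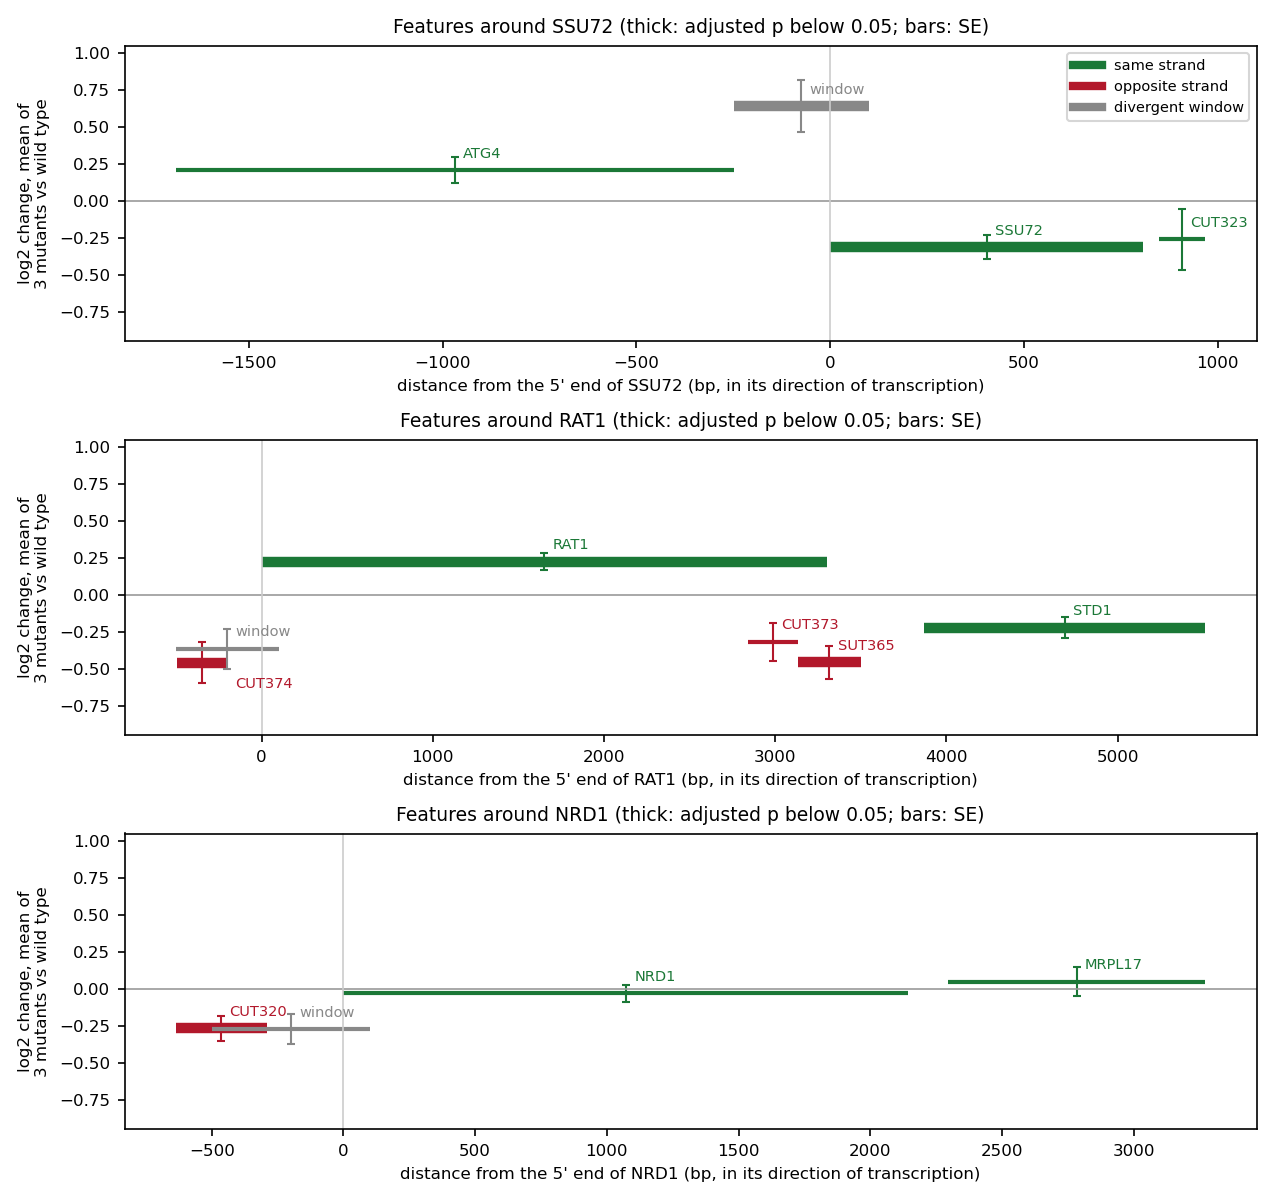
Log2 change (mean of the 3 mutants against wild type, ± SE) of SSU72, RAT1 and NRD1, their divergent windows and their neighbours, placed by distance in bp from the 5′ end of the gene. Thick bars have an edgeR adjusted p below 0.05; at RAT1 the gene is above 0 while CUT374 and SUT365 on the opposite strand are each at -0.46, and at SSU72 the window is above 0 (0.64) and the gene below it (-0.31).

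Few genes of the surrounding pathways were called. In 10 lists of termination, decay and related factors, 84 measured genes were not among the 8. Of these, 3 rose and 4 fell in the mean of the 3 mutants, 8.33% beside 20.8% of all features. With the replicate block 8 rose and 10 fell, 21.4% beside 30.8%. With wild-type replicate 1 or 2 left out, 0 rose and 1 fell in edgeR, with 11 or 17 of the 84 at an unadjusted p under 0.05. That is 1.19% in either case, beside 11.9% of all features without replicate 1 and 2.78% without replicate 2. DESeq2 on all libraries called 1 higher and 3 lower, 4.76% beside 10.03% of all features.

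The Nrd1-Nab3-Sen1 list holds only members, and 0 of 3 were called. In the 5′ exonuclease list 1 of 3 rose (RAT1), while RTT103, whose product brings Rat1 to the polymerase, had a log2 change of 0.01. In the nuclear exosome list 1 of 13 rose, the core subunit gene RRP46, with 80.3 ± 1.3 RPKM in cac1, 98.8 ± 5.8 in cac2 and 88.0 ± 1.0 in cac3, against 74.9 ± 5.4 in wild type (SD, n = 2 each; log2 change 0.22, adjusted p = 0.040). The block called 2 higher and 1 lower in that list. Of the 5 genes of TRAMP, the complex that adds short tails to exosome substrates, edgeR called 0, with 0 at an unadjusted p under 0.05 and 0 by DESeq2.

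In the list of the cleavage and polyadenylation factor 2 of 15 fell, SSU72 and GLC7, a second phosphatase of that complex. GLC7 had 182 ± 2.1 RPKM in cac1, 187 ± 12 in cac2 and 191 ± 2.8 in cac3, against 221 ± 6.6 in wild type (log2 change -0.24, SE 0.05, adjusted p = 0.010). Of the 5 genes of cleavage factor I edgeR called 0; outside PCF11, 2 of its 4 genes had an unadjusted p under 0.05, and DESeq2 and the block each called 1. HRP1, an RNA-binding subunit, had a log2 change of -0.23 (SE 0.08, adjusted p = 0.063), and -0.33 in cac1 (adjusted p = 0.042). A further list held 11 genes for kinases, phosphatases and an isomerase of the polymerase's carboxy-terminal domain. Of these edgeR called 0, with 2 at an unadjusted p under 0.05, 0 by DESeq2, and 1 higher and 1 lower with the block.

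In the cytoplasmic decay list 2 of 14 fell and the block called 5 lower. These were DCP2, the decapping enzyme, at -0.22 (SE 0.06, adjusted p = 0.034), and NMD2, a nonsense-mediated decay factor, at -0.20 (SE 0.06, adjusted p = 0.038). Of 9 measured genes known to be held back by early Nrd1-dependent termination, a list that includes NRD1 and PCF11 themselves, 1 rose and 1 fell, and the block called 2 higher and 2 lower among the 7 that are no members. URA2, the first enzyme of pyrimidine synthesis, had 159 ± 1.0 RPKM in cac1, 145 ± 8.1 in cac2 and 188 ± 7.4 in cac3, against 209 ± 6.8 in wild type (log2 change -0.36, SE 0.04, adjusted p = 0.00034). That change passed in all 14 settings, the left-out libraries included. FKS2, a glucan synthase gene listed as GSC2, had a log2 change of 0.25 (SE 0.07, adjusted p = 0.025). Of 17 measured chromatin factors that hold down noncoding transcription 1 rose, MOT1, at 0.26 (SE 0.06, adjusted p = 0.013), and the block called 3 higher. Of these, URA2 kept its call without each wild-type library, whereas RRP46, GLC7, DCP2, NMD2, FKS2 and MOT1 did not.

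**Figure D4:**
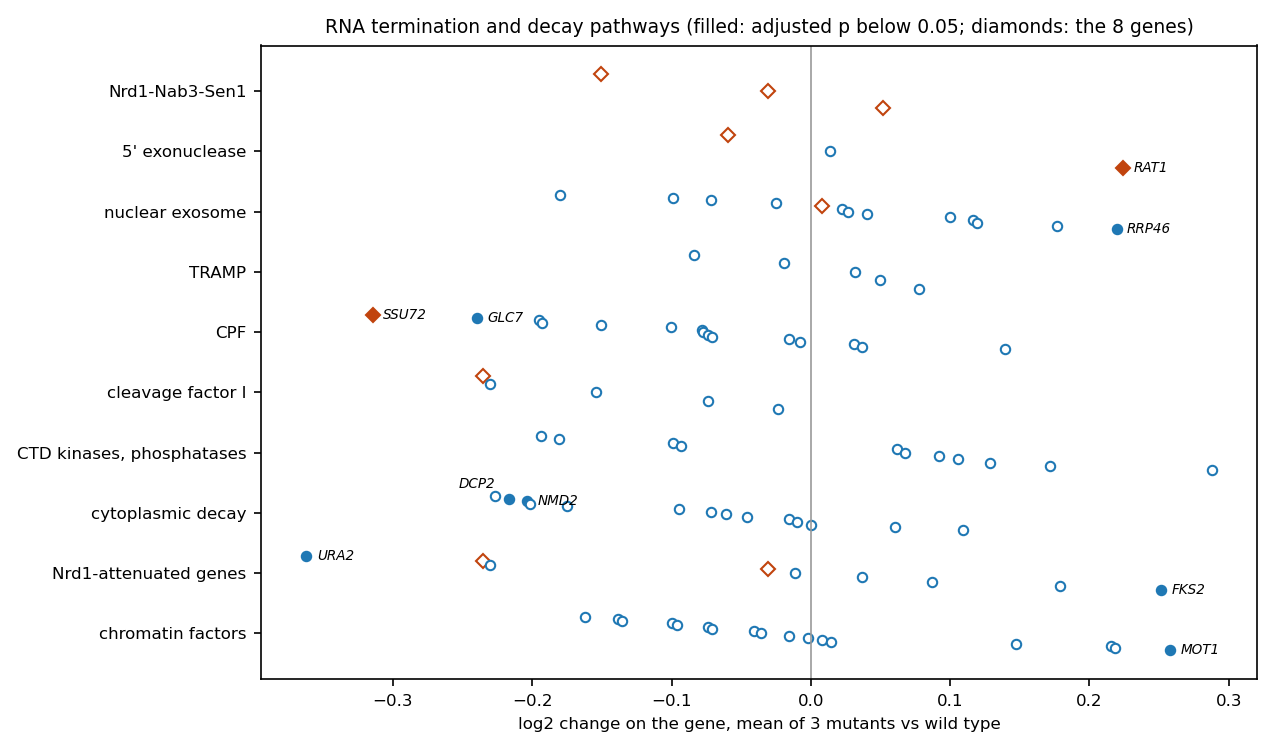
Log2 change (mean of the 3 mutants against wild type) of each measured gene in 10 lists of termination, decay and related factors, 1 row per list. Diamonds are the 8 genes, circles the others, and filled symbols have an edgeR adjusted p below 0.05; most genes lie between -0.2 and 0.2, with SSU72 (-0.31) and URA2 (-0.36) lowest and RAT1, FKS2 and MOT1 among the highest that passed the test.

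The noncoding classes gave their own counts in the same comparison. Of 925 CUTs 82 rose and 122 fell, with a median log2 change of -0.04, and of 846 SUTs 187 rose and 51 fell, with a median of 0.17. Over all features 11.9% rose and 8.86% fell. The class counts are from the main edgeR test only. DESeq2 called 10.03% of all features in this comparison, against 20.8%. The relation of the noncoding classes to the levels of the 8 genes was not tested.

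Among 5123 ORF-Ts with a mean of at least 5 RPKM, the patterns most like that of RAT1 across the 8 libraries were those of RGM1 (Pearson's r 0.99 on log2 RPKM), TAH11 (0.98) and the joint feature of YIL020C-A and HIS6 (0.97). For SSU72 they were SSO2 (0.98), OPI1 (0.97) and MRPS9 (0.96). These are descriptions over libraries that differ in depth and genotype. The genes were picked for likeness to a gene called in the same libraries. RGM1 had 35.7 to 46.3 RPKM in the mutants against 15.0 and 18.5 in wild type, and OPI1 had 132 to 157 RPKM in the mutants against 171.5 and 179.9 in wild type.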

How the data were processed

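The authors deposited whole read counts for every feature. Estimated counts of the window beside each ORF-T were deposited by the authors with empty windows entered as 0.5, here set to 0. The ratio of feature to window reads and RPKM values scaled to the ORF-T table's total were deposited by the authors. The RPKM values printed here are not those. They were computed from the counts, with a library's reads on all features times its scaling factor, given below, as the library size. NET-seq followed a published protocol, per the labels; the sources used here name no build, aligner or filters.

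The 8 genes and the lists were chosen with earlier results of these data known. Features with at least 1 RPKM in 2 libraries (7271 features, 5494 windows) were tested in edgeR 4.0.16 (quasi-likelihood, R 4.3.3) with all 8 libraries, a mean per group, no block and TMM factors of 0.964 to 1.02 from ORF-Ts; windows used the depth and factors of the gene counts. Log2((feature + 1)/(window + 1)) was tested in limma 3.58.1. P-values were adjusted by Benjamini-Hochberg within each comparison. The biological coefficient of variation was 8.13% for genes and 13.3% for windows. The fits were tested on simulated data without shared replicate deviations. The simulated windows were given about the variation of the genes, below their own, so that test does not cover the spread of the windows. Replicate deviations of the 6 pairs of groups correlated at 0.361 to 0.538 over 6636 features. The main tests ignored this pairing. Replicate number entered as a block only as an alternative, taken from the data and not from a stated batch. Alternatives were other scalings, DESeq2 1.42.0, no filter, the block, pseudocounts of 0.5 and 5, and leaving out each library. Named were all members, pathway genes past the threshold in the mean of the 3 mutants (up to 4 per list and direction), overlapping or nearest features, and the 3 best-correlated ORF-Ts of each member called on the gene; RTT103 and HRP1 were added after their values were seen. IMD2, HST1, NHP6A and NHP6B had no feature under their own name.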

Additional observations from a re-analysis of the deposited data

How the results depend on the processing

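Members called on the gene in the mean of the 3 mutants were 2, and 1 by DESeq2 (SSU72); leaving out 1 library gave 0 to 3. Calls over all features fell as well, to 10.03% by DESeq2, and with wild-type replicate 1 or 2 left out to 11.9% or 2.78%, against 20.8%. In cac1 the count of 1 became 0 by DESeq2, 3 with the replicate block and 0 to 1 with a library left out; without scaling factors it was RAT1 and not SSU72. In cac2 the count of 2 became 1 without scaling factors, 0 by DESeq2 and 0 to 2 with a library left out. In cac3 the count of 0 became 3 with the replicate block and stayed 0 with any library left out. Between mutants it was 0 in all 13 alternatives. For windows in the mean of the 3 mutants the count of 1 became 4 when scaled on the windows, 0 by DESeq2, 4 with the replicate block and 0 to 3 with a library left out. In cac1 the 3 became 0 by DESeq2 and 4 with the replicate block. Scaling on the windows kept the 3 and added RAI1 (log2 change -0.39, edgeR adjusted p = 0.046). That scaling called RAI1 (adjusted p = 0.012) and RAT1 (adjusted p = 0.034) in cac2, and NRD1 (adjusted p = 0.030) in cac3. In cac2 the 1 became 2 when scaled on the windows, 2 without scaling factors, 0 by DESeq2, 4 with the replicate block and 0 to 2 with a library left out. In cac3 the 0 became 1 when scaled on the windows, 1 with the replicate block and 0 to 1 with a library left out. The ratio count of 2 ranged over 0 to 2 with a library left out. Among the calls in single mutants, those of SSU72 in cac1 and of RAT1 in cac2 on the gene were lost without either library of the mutant, that of SSU72 in cac2 without cac2 replicate 1 or cac1 replicate 1, and that of RAT1 in cac2 also without cac3 replicate 2. Window calls of SSU72 and NRD1 in cac1 were lost without either cac1 library, and that of SSU72 in cac2 without cac2 replicate 2. The SSU72 ratio in cac1 passed in all 12 alternatives. The cause of these moves was not tested, except that a left-out library leaves fewer samples and its partner is assumed to vary like the other groups. No value that passed the test changed sign, in 65 alternatives on the gene, 65 in windows and 60 for the ratio. These alternatives refit the same 8 libraries and are not separate checks. Values chosen for passing the test were also unlikely to change sign. Values that did not pass changed sign in 26 of 351, 13 of 351 and 10 of 324 alternatives, among them RRP6, whose mean of the 3 mutants ran over -0.18 to 0.18. The pairing changed no other call of the 8 genes against wild type than those given beside the results. Wild type had 2 libraries, and windows of 10 to 44 reads, as at SEN1, limit what could be detected.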

Other observations

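RGM1 and SSO2, the ORF-Ts that followed RAT1 and SSU72 most closely, carry the consecutive systematic names YMR182C and YMR183C. RGM1 rose by 1.15 on the log2 scale in the mean of the 3 mutants (edgeR adjusted p = 0.00022). SSO2 fell by 0.20 (edgeR adjusted p = 0.049), with 116 to 138 RPKM in the mutants against 146.5 and 146.7 RPKM in wild type. Both were picked for likeness to a gene called in these same libraries, so a difference from wild type follows in part from that choice.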
